A study of Mus musculus with 22 samples.

Results

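The potassium channel genes of cerebellar granule cells were taken as every gene whose symbol starts with Kcn in the array annotation, on probe sets that carry exactly 1 symbol. They number 84 of 18194 genes on the array, 81 of them genes of channel subunits and 3 genes of antisense RNAs, and each is represented by the brightest of its probe sets. Of the 84 genes, 32 were bright enough to be tested, among 10772 genes tested in all. The values come from 22 Affymetrix mouse arrays in 3 separate comparisons. Cultured Chd7 mutant neurons (n = 4) were compared with control neurons labelled wild type (n = 4). A second pair held neurons exposed for 12 h to 10 µM ICRF-193, which blocks the enzymatic cycle of topoisomerase II (n = 4), and neurons given its solvent DMSO (n = 4). Cells cultured with Smo2 (n = 3) were compared with cells cultured without it (n = 3). All cells came from cerebella of pups at postnatal day 7, carry the strain label C56Bl6/J and are labelled granule neuron progenitors, and the titles call each array a biological replicate. Whether replicates came from separate litters or cultures is not stated, so p-values measure the spread between these arrays.

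According to the study the mutant neurons carried a floxed Chd7 gene and Atoh1-Cre, a driver of the granule lineage, and the control neurons carried the floxed gene without Cre. Cells that do not derive from the Atoh1 lineage keep Chd7 in such mice, and the study considers recombination by this driver less efficient in the posterior cerebellum. The study also describes an agonist of Smoothened, the receptor that passes on the sonic hedgehog signal, for cultures of dividing granule progenitors, but Smo2 is nowhere in the labels identified with that compound.

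Potassium channels let potassium ions leave the cell and so set the resting potential, end the action potential and limit repetitive firing. The pore-forming subunits fall into the voltage-gated families (Kcna, Kcnc, Kcnd, Kcnh, Kcnq and the silent modifiers Kcnf, Kcng, Kcns and Kcnv), the inward rectifiers (Kcnj), the tandem-pore leak channels (Kcnk) and the channels opened by calcium or sodium (Kcnma, Kcnn, Kcnt), and auxiliary subunits (Kcnab, Kcne, Kcnip, Kcnmb) change how they gate or reach the membrane. Granule cells acquire these currents as they leave the cell cycle and mature, and the A-type current of Kcnd channels is among the best known of them.

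Kcnab1, Kcnd2, Kcnj3, Kcnk10 and Kcnq5 were lower in the mutant, with ICRF-193 and with Smo2. The 250 bases before the annotated start are shown for 3 of these 5 genes, namely Kcnj3, which had the largest decrease of the 5 in the mutant, Kcnq5, which had it with ICRF-193 and with Smo2, and Kcnd2, which came next in the mutant and with ICRF-193. The sequences are from RefSeq, build GRCm38.p6, in the direction of transcription, with matches to the searched motifs in capitals. Kcnd2 lies at chr6:21215096-21215345 on the plus strand, Kcnj3 at chr2:55435720-55435969 on the plus strand, and Kcnq5 at chr1:21962651-21962900 on the minus strand, the most upstream of 2 annotated starts.
Kcnd2: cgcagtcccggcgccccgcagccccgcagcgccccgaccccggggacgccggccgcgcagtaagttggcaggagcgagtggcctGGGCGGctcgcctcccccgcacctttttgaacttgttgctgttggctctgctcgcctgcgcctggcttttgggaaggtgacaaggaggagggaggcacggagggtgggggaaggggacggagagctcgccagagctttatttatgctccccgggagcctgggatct
Kcnj3: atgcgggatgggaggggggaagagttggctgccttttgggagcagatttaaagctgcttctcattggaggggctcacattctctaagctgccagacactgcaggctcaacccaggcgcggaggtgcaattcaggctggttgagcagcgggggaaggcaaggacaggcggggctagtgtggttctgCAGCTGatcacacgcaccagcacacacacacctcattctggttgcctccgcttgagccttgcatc
Kcnq5: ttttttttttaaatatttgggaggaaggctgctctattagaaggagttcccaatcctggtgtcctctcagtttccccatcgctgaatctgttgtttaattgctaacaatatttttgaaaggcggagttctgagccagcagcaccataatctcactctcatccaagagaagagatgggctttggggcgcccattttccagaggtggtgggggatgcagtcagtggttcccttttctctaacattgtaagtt
The motifs searched on both strands were the GC box GGGCGG, the E-box palindrome CAGCTG and the TATA box TATAAA. The Kcnd2 window held 1 GC box, 22 CpG dinucleotides and 68.8% G and C. The Kcnj3 window held 1 E-box palindrome, 7 CpG dinucleotides and 58.4% G and C, and the Kcnq5 window held none of the motifs, 3 CpG dinucleotides and 44.4% G and C. Of the other two, the Kcnab1 window held 2 GC boxes and the Kcnk10 window 1. Among 32851 promoter windows of 250 bases, 32.7% held the GC box, 13.0% the E-box palindrome and 12.4% the TATA box. The GC box was thus in 3 of the 5 windows and no searched motif was in all 5, and a match here is a run of letters, not a site shown to be bound.

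Levels are given as log2 of the deposited signal, floored at 16 (4.0 on the log2 scale) and quantile normalized. Signals of different probe sets depend on their probes, so a level is to be read across the arrays of 1 gene, and the brightest probe set of a subfamily below need not belong to its most abundant transcript. Of the 52 genes not tested, 32 lay below the filter and 20 lay near the floor, with a mean under 5 in each of the 6 groups. Kcnj2 and Kcnn3 were at the floor on all 22 arrays. Tested genes were found in most subfamilies of the voltage-gated and leak channels. The Kcna family had 3 tested of 7 genes, Kcnab 2 of 3, Kcnc 1 of 3, Kcnd 2 of 3, Kcnh 3 of 6, Kcnj 5 of 15, Kcnk 5 of 12, Kcnmb 2 of 3, Kcnq 2 of 3, Kcns 1 of 3 and Kcnt 1 of 2. The Kcne family had 1 tested of 5, Kcnip 1 of 4, and the BK channel gene Kcnma1 was tested. None of the 4 small-conductance calcium-activated channel genes (Kcnn) was tested, the brightest being Kcnn2 with a mean of 6.05 over the 22 arrays. None of the silent modifiers of the Kcnf, Kcng and Kcnv families was tested either (brightest members Kcnf1 at 4.40, Kcng2 at 4.84 and Kcnv1 at 4.70), nor was Kcnu1, the sperm channel, at 5.21. The brightest probe sets of the other subfamilies had means, in alphabetical order, of 10.67 (Kcna1), 8.67 (Kcnab1), 10.84 (Kcnc1), 12.80 (Kcnd2), 7.66 (Kcne1l), 8.09 (Kcnh1), 8.20 (Kcnip3), 11.50 (Kcnj3), 12.81 (Kcnk1), 7.45 (Kcnma1), 11.33 (Kcnmb4), 10.84 (Kcnq5), 9.07 (Kcns2) and 6.94 (Kcnt2), and the brightest probe set of an antisense RNA was that of Kcnmb4os2 at 9.15.

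**Figure D1:**
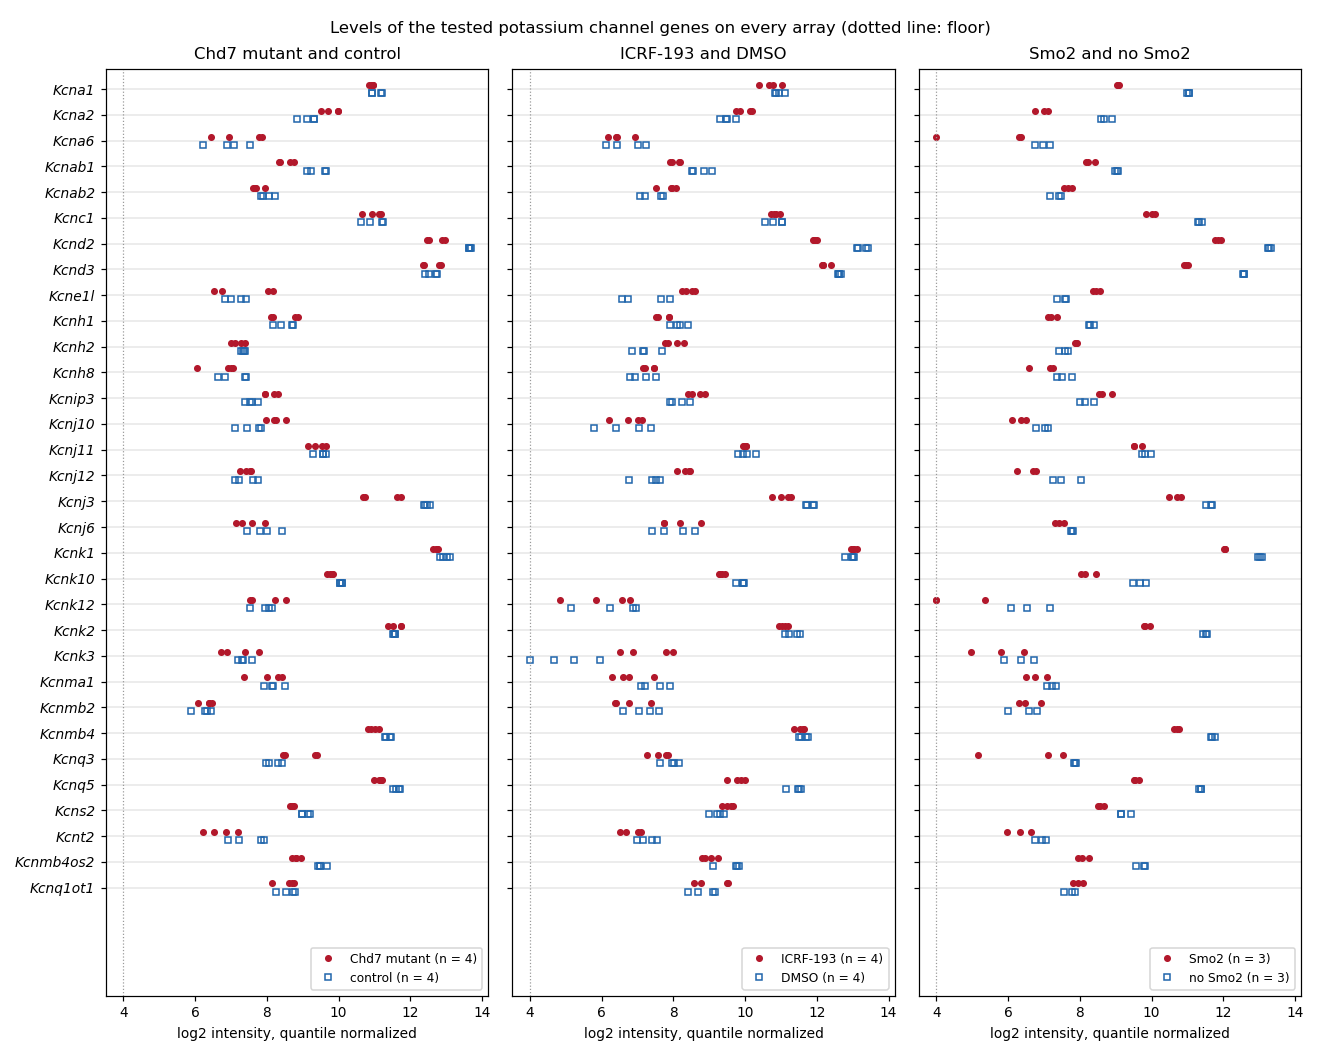
Log2 intensity (x axis, quantile normalized) of the 32 tested genes (rows) on every array, with Chd7 mutant, ICRF-193 and Smo2 arrays as filled points and control, DMSO and no Smo2 arrays as open squares; the dotted line is the floor. In the Smo2 panel most filled points lie left of the open squares, in the other panels only some do, and arrays of Kcnk3, Kcnk12 and Kcna6 sit at the floor.

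In the labelled mutants one Chd7 probe set was lower, 9.47 ± 0.54 in mutant against 11.50 ± 0.23 in control arrays (mean ± SD, n = 4 each, adjusted p = 0.00334 when limma was run on all probe sets), while the other gave 11.65 ± 0.25 in mutant against 11.89 ± 0.13 in control arrays (adjusted p = 0.298). Which part of the transcript each probe set reads was not determined. Both Chd7 probe sets were also lower with ICRF-193 than with DMSO (-1.28 with adjusted p = 0.00466, and -1.35 with adjusted p = 0.000742) and with Smo2 than without (-0.72 with adjusted p = 8.62e-05, and -0.67 with adjusted p = 0.00017). What part the Chd7 level had in changes of other genes was not tested. The granule lineage markers averaged 11.54 to 11.80 on mutant arrays against 11.83 to 11.89 on control arrays, 11.63 to 11.73 with ICRF-193 against 11.81 to 11.93 with DMSO, and 11.57 to 11.67 with Smo2 against 12.07 to 12.14 without. Averages of marker lists, here and below, run over all measured genes of a list, and counts run over the tested ones. Genes of other cells also differed. Skeletal muscle genes averaged 7.21 to 7.94 on mutant against 5.72 to 5.99 on control arrays (3 of 3 tested higher). Of the 6 measured muscle genes only Ttn, not tested, went the other way (4.95 and 5.29). Oligodendrocyte genes averaged 9.33 to 10.08 on mutant against 8.11 to 9.25 on control arrays (1 of 6 higher). In the Chd7 and ICRF-193 comparisons the arrays fell into sets, replicates 1 and 2 and replicates 3 and 4, that deviated from their group means together, so the changes of called genes are also given within each set. In RNA from a whole culture, fewer cells of a type and less RNA per cell cannot be told apart.

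The first comparison asks which of these genes depend on Chd7, a chromatin remodeller. 8 of the 32 tested genes (25.0%) were lower and 3 (9.38%) were higher in Chd7 mutant than in control neurons, where 3.82% and 5.09% of all genes tested were lower and higher (limma, Benjamini-Hochberg adjusted p under 0.05). For 13 genes (40.6%) the groups did not overlap, against 19.6% of all genes tested. The median change was -0.14 over the 32 genes and 0.00 over all genes tested. The lower genes were Kcnj3, a G protein-gated inward rectifier, Kcnd2, the pore of the somatodendritic A-type current, Kcnab1, a beta subunit that speeds inactivation of Kcna channels, Kcnq5, a channel of the muscarine-sensitive M current, the BK subunit Kcnmb4 and its antisense RNA Kcnmb4os2, the silent modifier Kcns2 and the leak channel Kcnk10. Markers of proliferating progenitors averaged 9.08 to 9.82 on mutant against 8.43 to 8.91 on control arrays (2 of 5 tested higher), and pericyte and fibroblast genes 8.84 to 9.88 on mutant against 8.23 to 9.10 on control arrays (2 of 6 higher). What part these cells had in the changes was not tested.

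Kcnj3 had 11.62, 11.73, 10.75 and 10.68 on the mutant arrays, against 12.46, 12.37, 12.42 and 12.54 on the control arrays. All mutant arrays lay below all control arrays, and mutant replicates 3 and 4 lay about a full unit below mutant replicates 1 and 2. The change was -1.25 (95% interval -1.81 to -0.69, 2.38-fold lower, limma adjusted p = 0.0186), with -0.74 within replicates 1 and 2 and -1.76 within replicates 3 and 4. Kcnd2 had 12.89, 12.96, 12.46 and 12.51 on mutant arrays, against 13.68, 13.62, 13.65 and 13.62 on control arrays, again without overlap and with the lower mutant values in replicates 3 and 4. It changed by -0.94 (-1.22 to -0.67, 1.92-fold lower, limma adjusted p = 0.00323), with -0.73 and -1.16 within the sets. Kcnab1 had 8.64, 8.75, 8.35 and 8.37 on mutant arrays, against 9.66, 9.63, 9.13 and 9.22 on control arrays. Here both groups were lower in replicates 3 and 4, and the groups did not overlap. Its change was -0.88 (-1.23 to -0.54, 1.85-fold lower, limma adjusted p = 0.0113).

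The other lower genes changed less. Kcnmb4os2 averaged 8.81 ± 0.10 in mutant and 9.52 ± 0.11 in control neurons (-0.70, limma adjusted p = 0.00161), and Kcnmb4, the neuronal beta subunit of the BK channel, averaged 10.97 ± 0.13 in mutant and 11.37 ± 0.09 in control neurons (-0.41, adjusted p = 0.0218). The symbol of Kcnmb4os2 marks it as an opposite strand transcript of Kcnmb4, and both were lower. Kcnq5 averaged 11.12 ± 0.10 in mutant and 11.63 ± 0.08 in control neurons (-0.51, limma adjusted p = 0.00529), Kcns2 averaged 8.70 ± 0.06 and 9.08 ± 0.12 (-0.37, adjusted p = 0.0176), and Kcnk10, a leak channel opened by stretch and lipids, averaged 9.77 ± 0.08 and 10.07 ± 0.03 (-0.30, adjusted p = 0.0186). In each of these 5 genes the mutant and control arrays did not overlap. Kcnh8, a voltage-gated channel of the ELK group, had 6.91, 7.06, 6.07 and 7.003 on mutant arrays, against 7.41, 7.39, 6.84 and 6.62 on control arrays. Its groups overlapped and its change of -0.31 did not pass (limma adjusted p = 0.511). It is among the genes that the study or its supplement lists, as are Kcnd2, Kcnj3, Kcnq5 and Kcnab1, which were lower here. The supplement holds a list from RNA sequencing of fresh progenitors and a list from arrays of cultured neurons. Their thresholds differ from the one used here, and which list held which gene is not given here. By qRT-PCR the study reports lower Kcnd2 in mutant neurons and in neurons treated with ICRF-193.

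The 3 higher genes were Kcnj10 at 8.24 ± 0.23 in mutant and 7.55 ± 0.33 in control neurons (0.69, limma adjusted p = 0.0495), Kcna2 at 9.80 ± 0.23 and 9.14 ± 0.23 (0.65, adjusted p = 0.0306) and Kcnip3 at 8.10 ± 0.18 and 7.56 ± 0.15 (0.54, adjusted p = 0.0218). Kcna2 is a delayed rectifier of axons, Kcnip3 a calcium-binding partner of Kcnd channels, and Kcnj10 the inward rectifier best known from astrocytes and Bergmann glia. Astrocyte and Bergmann glia markers averaged 9.43 to 11.01 on mutant against 8.97 to 9.88 on control arrays, with 1 of 8 tested higher, and no listed marker was at the floor on all arrays. The part of glial RNA in the Kcnj10 value was not tested. With the replicate number as a block, Kcnj10 did not pass (adjusted p = 0.0932), while Kcnq3 at 0.73 (adjusted p = 0.0245), the sodium-activated channel Kcnt2 at -0.78 (adjusted p = 0.0173) and Kcnj6 at -0.41 (adjusted p = 0.0498) did.

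All 11 calls had the same direction within both sets of replicates, but none of them passed once the arrays of a set were averaged into 1 sample, with the set as a block and n = 2 a group (limma adjusted p 0.0916 to 0.234). The sizes differed between the sets for Kcnip3 (0.29 within replicates 1 and 2, 0.80 within replicates 3 and 4), Kcnj10 (0.48 and 0.90), Kcnmb4 (-0.53 and -0.28) and Kcns2 (-0.51 and -0.24), and less for Kcnab1 (-0.95 and -0.81), Kcnmb4os2 (-0.77 and -0.63), Kcna2 (0.67 and 0.64), Kcnq5 (-0.48 and -0.53) and Kcnk10 (-0.26 and -0.34). Leaving out control replicate 1, 3 or 4 ended the call of Kcnj3 (limma adjusted p up to 0.0531), control replicate 1 that of Kcns2 (0.0510), control replicate 1 or 2 that of Kcnk10 (up to 0.0567), mutant replicate 4 or control replicate 1 or 2 that of Kcnmb4 (up to 0.0653), and mutant replicate 4 or control replicate 1, 3 or 4 that of Kcnip3 (up to 0.0608). Kcna2 lost its call without any 1 array but mutant replicate 3 (up to 0.0758) and Kcnj10 without any array (up to 0.119). Kcnab1, Kcnd2, Kcnmb4os2 and Kcnq5 kept theirs in all 8 such fits. Of the 11 genes, 6 had further probe sets above the filter, and these agreed in sign. A further probe set did not pass for Kcnk10 (changes of -0.39 to -0.30 over 2 probe sets) and for Kcnq5 (-0.51 to -0.12 over 3). With the mean of all probe sets of a gene in place of the brightest, Kcnq5 (-0.34, adjusted p = 0.0608), Kcns2 (-0.41, adjusted p = 0.0854) and the 3 higher genes did not pass. Of these Kcnj10 has 1 probe set, so for it only the genes fitted beside it changed.

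**Figure D2:**
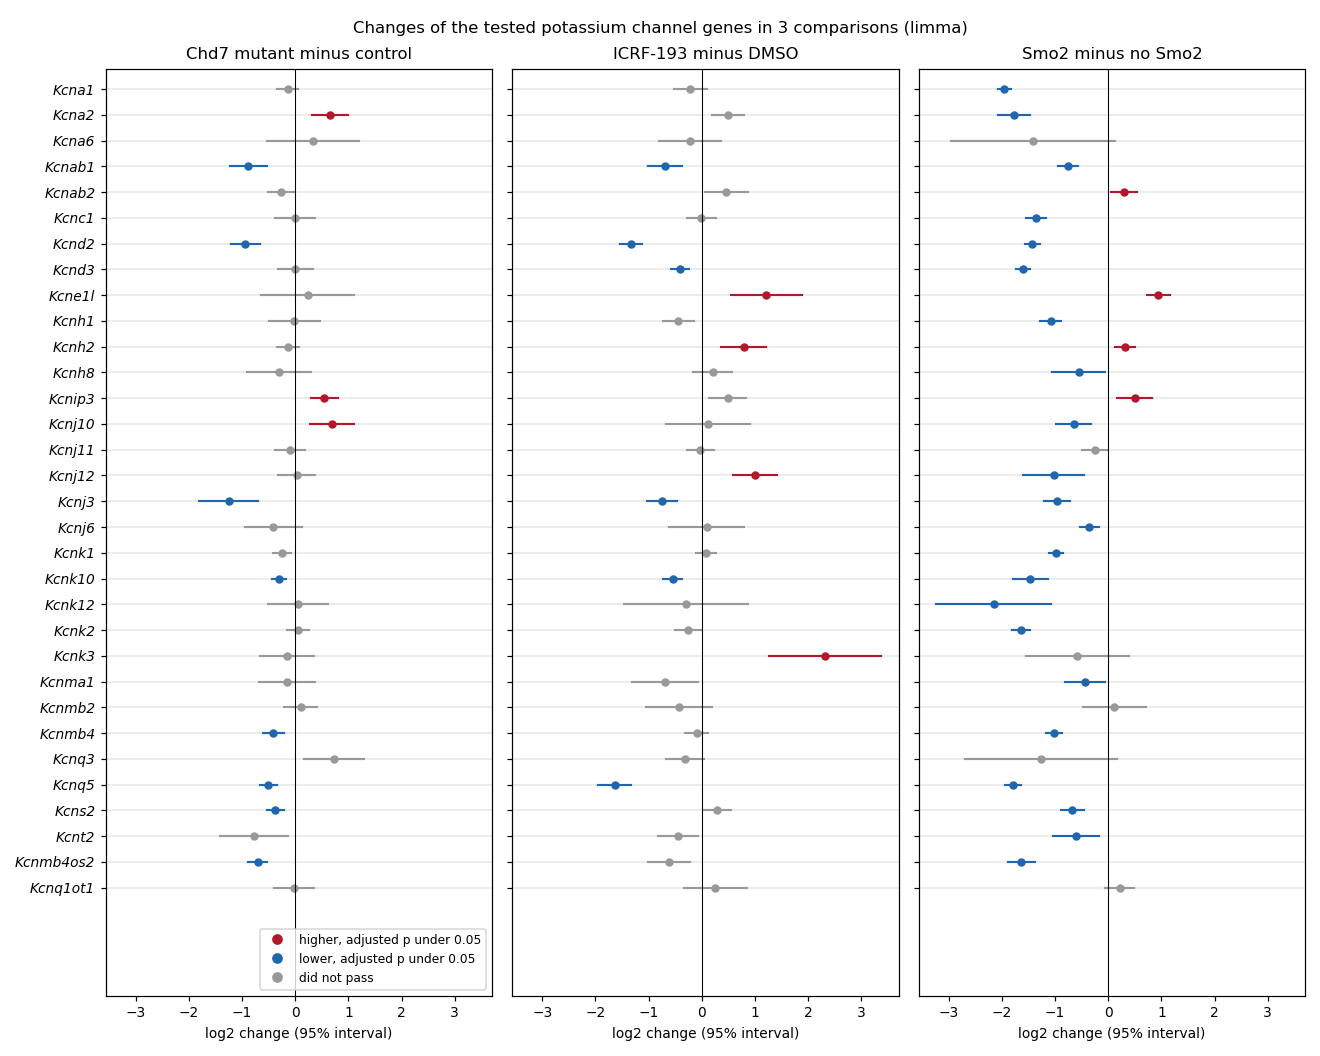
Log2 change of the 32 tested genes (rows) in each comparison, with 95% intervals from limma; red marks higher, blue lower at an adjusted p under 0.05, grey did not pass. Blue points number 8 for the Chd7 mutant, 6 for ICRF-193 and 22 for Smo2, and red points 3, 4 and 4.

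The second comparison asks what inhibition of type II topoisomerases does in these neurons. With ICRF-193, 6 of 32 genes (18.8%) were lower and 4 (12.5%) were higher than with DMSO, against 3.46% and 3.14% of all genes tested (limma). The groups did not overlap for 12 genes (37.5%), against 14.3% of all genes tested, and the median change was -0.15 over the 32 genes and 0.01 over all genes tested. The lower genes were Kcnq5, Kcnd2, Kcnj3, Kcnab1, Kcnk10 and Kcnd3, the last another pore of A-type current. The higher genes were the acid-sensitive leak channel Kcnk3, the small accessory subunit Kcne1l, the strong inward rectifier Kcnj12 and the ERG channel Kcnh2. Oligodendrocyte genes averaged 7.89 to 8.41 with ICRF-193 against 8.47 to 8.95 with DMSO (1 of 6 tested lower), and their part in these changes was not tested.

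Kcnq5 had 10.01, 9.87, 9.76 and 9.49 on ICRF-193 arrays, against 11.56, 11.50, 11.14 and 11.48 on DMSO arrays. The groups were more than a full unit apart, and the change was -1.64 (95% interval -1.94 to -1.33, 3.11-fold lower, limma adjusted p = 0.000188). Kcnd2 had 12.01, 11.94, 11.92 and 11.88 on ICRF-193 arrays, against 13.43, 13.36, 13.11 and 13.16 on DMSO arrays. It also did not overlap and changed by -1.33 (-1.53 to -1.12, 2.51-fold lower, adjusted p = 6.77e-05). Both kept their calls under every alternative tried. Kcnj3 averaged 11.06 ± 0.24 with ICRF-193 and 11.81 ± 0.12 with DMSO (-0.75, limma adjusted p = 0.0081), Kcnab1 averaged 8.05 ± 0.13 and 8.74 ± 0.27 (-0.69, adjusted p = 0.0207), Kcnk10 averaged 9.35 ± 0.07 and 9.89 ± 0.10 (-0.55, adjusted p = 0.00353), and Kcnd3 averaged 12.22 ± 0.11 and 12.62 ± 0.03 (-0.40, adjusted p = 0.0154).

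Kcnk3 had 6.88, 7.99, 6.51 and 7.79 on ICRF-193 arrays, against 5.96, 5.23, 4.68 and 4.00 on DMSO arrays. DMSO replicate 4 was at the floor, so the size of the change depends in part on the floor, and the ICRF-193 arrays all lay above the DMSO arrays. Its change of 2.32 (95% interval 1.27 to 3.37, 4.998-fold higher, limma adjusted p = 0.0202) was the largest of the 32 genes in this comparison. Kcnk3 averaged 7.29 with ICRF-193 and 4.97 with DMSO. On arrays of the other comparisons it averaged 7.36 in Chd7 control neurons and 6.32 without Smo2, so the DMSO mean was the low one. Further Kcnk3 probe sets below the filter, with means of 4.40 and 4.41, gave smaller changes of 0.48 and 0.14. Kcne1l had 8.34, 8.26, 8.52 and 8.60 on ICRF-193 arrays, against 6.73, 6.57, 7.65 and 7.91 on DMSO arrays, so DMSO replicates 3 and 4 came closer to the ICRF-193 arrays than DMSO replicates 1 and 2. It changed by 1.21 (0.55 to 1.88, 2.32-fold higher, adjusted p = 0.0457), with 1.65 within replicates 1 and 2 and 0.78 within replicates 3 and 4. Kcnj12 had 8.32, 8.45, 8.09 and 8.44 on ICRF-193 arrays, against 7.504, 7.63, 6.77 and 7.401 on DMSO arrays, without overlap. It changed by 1.00 (0.58 to 1.42, 2.00-fold higher, adjusted p = 0.0143). Kcnh2 averaged 8.01 ± 0.23 with ICRF-193 and 7.22 ± 0.35 with DMSO (0.79, limma adjusted p = 0.0410).

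With the replicate number as a block the 10 genes all passed and 4 more did, Kcnma1 (-0.68, limma adjusted p = 0.0299) and Kcnh1 (-0.44, adjusted p = 0.0179) lower and Kcna2 (0.49, adjusted p = 0.0233) and Kcnip3 (0.49, adjusted p = 0.0105) higher. Once the arrays of a set were averaged into 1 sample (n = 2 a group, with the set as a block), Kcnd2 (limma adjusted p = 0.0223), Kcnq5 (0.0174) and Kcnk3 (0.0452) passed, while the other 7 genes (0.0518 to 0.115) and the 4 gained under the replicate number did not. All 10 calls had the same direction within both sets. Within replicates 1 and 2 and within replicates 3 and 4 the changes were -1.03 and -0.48 for Kcnj3, -0.66 and -0.44 for Kcnk10, -0.80 and -0.58 for Kcnab1, -0.47 and -0.33 for Kcnd3, -1.42 and -1.23 for Kcnd2, -1.59 and -1.69 for Kcnq5, 1.84 and 2.81 for Kcnk3, 0.82 and 1.19 for Kcnj12, and 0.66 and 0.92 for Kcnh2. Calls were lost without ICRF-193 replicate 2 or 4 or DMSO replicate 3 for Kcnk3 (limma adjusted p up to 0.0615), without ICRF-193 replicate 3 or 4 or DMSO replicate 2 for Kcnab1 (up to 0.0635), without ICRF-193 replicate 2 for Kcnd3 (0.0501), without any 1 array but DMSO replicate 4 for Kcne1l (up to 0.117) and without any 1 array but DMSO replicate 2 for Kcnh2 (up to 0.108). Kcnd2, Kcnj3, Kcnk10, Kcnq5 and Kcnj12 kept theirs in all 8 such fits. For 6 of the 10 genes further probe sets lay above the filter and had the same sign, but for Kcnab1, Kcnd3, Kcnj3, Kcnk10 and Kcnq5 at least 1 of them did not pass. Over its 3 probe sets Kcnq5 ranged from -1.64 to -0.37, Kcnj3 from -0.91 to -0.35 and Kcnd3 from -0.40 to -0.21, and over its 2 probe sets Kcnk10 ranged from -0.55 to -0.17 and Kcnab1 from -0.69 to -0.56. Kcnd3 (-0.26, adjusted p = 0.454), Kcnk10 (-0.36, adjusted p = 0.0711) and Kcne1l (1.21, adjusted p = 0.0520) did not pass with the mean of probe sets. Kcne1l has 1 probe set, so its values were the same and only the genes fitted beside it changed.

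The third comparison sets cells cultured with Smo2 against cells without it. Markers of proliferating progenitors averaged 12.46 on all 3 Smo2 arrays against 8.86 to 9.15 on the arrays without Smo2 (5 of 5 tested higher), and 8 of 9 tested granule lineage markers were lower and 1 higher. How much of the changes below goes with the share of dividing cells was not tested. With Smo2, 22 of 32 genes (68.8%) were lower and 4 (12.5%) were higher, in a comparison where 39.0% and 29.7% of all genes tested were lower and higher (limma). The groups did not overlap for 27 genes (84.4%), against 73.5% of all genes tested. The median change was -0.97 over the 32 genes and -0.09 over all genes tested. The 22 lower genes included pores of the voltage-gated, inward rectifier and leak families, and the 4 higher genes were the accessory subunits Kcne1l, Kcnip3 and Kcnab2 and the voltage-gated pore Kcnh2.

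Among the voltage-gated pores, the delayed rectifier Kcna1 had 9.07, 9.10 and 9.03 on Smo2 arrays, against 11.03, 10.99 and 11.03 on the arrays without Smo2. Its arrays hardly varied within a group, and the change was -1.96 (95% interval -2.08 to -1.84, 3.88-fold lower, limma adjusted p = 2.02e-06). Kcna2 had 7.13, 6.76 and 7.005 on Smo2 arrays, against 8.90, 8.60 and 8.68 without Smo2 (-1.76, 3.40-fold lower). Kcnq5 had 9.53, 9.65 and 9.50 on Smo2 arrays, against 11.37, 11.37 and 11.32 without Smo2 (-1.79, 3.46-fold lower). The A-type pores were lower as well, and neither overlapped. Kcnd3 had 11.01, 10.97 and 10.91 on Smo2 arrays, against 12.56, 12.58 and 12.57 without Smo2 (-1.60, 3.04-fold lower). Kcnd2 had 11.86, 11.93 and 11.78 on Smo2 arrays, against 13.32, 13.25 and 13.27 without Smo2 (-1.42, 2.69-fold lower).

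Kcnc1, a channel of fast-spiking neurons, had 10.02, 10.09 and 9.83 on Smo2 arrays, against 11.40, 11.31 and 11.30 without Smo2 (-1.36, 2.56-fold lower). The EAG channel Kcnh1 had 7.36, 7.19 and 7.13 on Smo2 arrays, against 8.40, 8.27 and 8.26 without Smo2 (-1.08, 2.12-fold lower). The limma adjusted p-values of the 6 genes after Kcna1 lay between 3.71e-06 (Kcnd3) and 6.33e-05 (Kcnh1), and in none of them did the groups overlap. Of the remaining voltage-gated genes Kcns2 changed by -0.67 (adjusted p = 0.000846) and Kcnh8 by -0.56 (adjusted p = 0.0464). The Kcna member Kcna6 had 1 Smo2 array at the floor and did not pass (-1.41, adjusted p = 0.0910).

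Among the leak channels, Kcnk12 had 5.35, 4.00 and 4.00 on Smo2 arrays, against 6.09, 7.17 and 6.54 without Smo2. As 2 of the Smo2 arrays were at the floor, its change of -2.15 (95% interval -3.23 to -1.07, 4.43-fold lower, limma adjusted p = 0.00547) depends on the floor and ranged from -2.60 to -1.48 over the alternatives. The mechanically gated Kcnk2 had 9.80, 9.83 and 9.97 on Smo2 arrays, against 11.53, 11.44 and 11.54 without Smo2 (-1.64, 3.12-fold lower, adjusted p = 7.74e-06). Its close relative Kcnk10 had 8.14, 8.04 and 8.44 on Smo2 arrays, against 9.49, 9.69 and 9.84 without Smo2 (-1.47, 2.77-fold lower, adjusted p = 0.000155). The leak channels thus differed in size of change, with Kcnk3 not passing at -0.58 (adjusted p = 0.233). Kcnk1 had 12.04, 12.02 and 12.05 on Smo2 arrays, against 12.96, 13.01 and 13.07 without Smo2 (-0.98, 1.97-fold lower, adjusted p = 1.9e-05).

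Of the inward rectifiers, Kcnj12 had 6.68, 6.24 and 6.77 on Smo2 arrays, against 7.25, 7.47 and 8.05 without Smo2 (-1.03, 2.04-fold lower, limma adjusted p = 0.00868). Kcnj3 had 10.70, 10.81 and 10.49 on Smo2 arrays, against 11.70, 11.51 and 11.67 without Smo2 (-0.96, 1.95-fold lower, adjusted p = 0.000276). Neither overlapped. Kcnj6, which pairs with Kcnj3 in G protein-gated channels, changed by -0.35 (adjusted p = 0.00547) and the glial Kcnj10 by -0.65 (adjusted p = 0.00551). Astrocyte and Bergmann glia markers averaged 8.28 to 8.58 on Smo2 arrays against 8.88 to 9.02 without Smo2 (6 of 8 tested lower and 2 higher), and the part of glial RNA in the Kcnj10 value was not tested. The fifth inward rectifier tested, Kcnj11, a pore of the ATP-sensitive channel, did not pass (-0.26, adjusted p = 0.0535).

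In the BK channel group, Kcnmb4 had 10.71, 10.62 and 10.75 on Smo2 arrays, against 11.69, 11.78 and 11.65 without Smo2 (-1.01, 2.02-fold lower, limma adjusted p = 3.15e-05). Its antisense RNA Kcnmb4os2 had 8.07, 8.26 and 7.95 on Smo2 arrays, against 9.79, 9.57 and 9.81 without Smo2 (-1.63, 3.10-fold lower, adjusted p = 3.69e-05). Both were thus lower without overlap, as in the mutant. The pore gene Kcnma1 changed by -0.43 (adjusted p = 0.0433) with overlapping groups, and over its 3 probe sets above the filter the changes ran from -0.43 to 0.66, so its direction is not settled. Kcnt2 changed by -0.61 (adjusted p = 0.0221). Kcnab1, an accessory subunit, averaged 8.27 ± 0.13 with Smo2 and 9.02 ± 0.04 without (-0.76, adjusted p = 0.000275).

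Among the higher genes with Smo2, Kcne1l had 8.37, 8.45 and 8.55 on Smo2 arrays, against 7.58, 7.61 and 7.36 without Smo2 (0.94, 1.92-fold higher, limma adjusted p = 0.000166). Kcnip3 averaged 8.68 ± 0.19 with Smo2 and 8.18 ± 0.19 without (0.50, adjusted p = 0.0160), Kcnh2 averaged 7.89 ± 0.03 and 7.57 ± 0.13 (0.32, adjusted p = 0.00929), and Kcnab2, a beta subunit of Kcna channels, averaged 7.66 ± 0.11 and 7.36 ± 0.16 (0.30, adjusted p = 0.0352). None of the 4 had overlapping groups. A further Kcnip3 probe set, with a mean of 6.25 below the filter, gave a larger change of 2.70. Of the 52 genes not tested, 6 passed when no filter was used. The share of all genes that passed in that fit was not taken, so this count is a description only. Kcng2 (6.08 with Smo2 and 4.13 without), Kcne1 (5.98 and 4.42) and Kcnj14 (5.14 and the floor of 4.0) were higher. So were Kcnj13 (5.42 and 4.39) and Kcnip1 (6.30 and 5.49), while Kcnh3 (5.81 and 6.88) was lower.

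Of the 26 calls in this comparison 22 were kept when any 1 array was left out. Kcnab2 lost its call without Smo2 replicate 2 or 3 or no Smo2 replicate 1 or 2 (limma adjusted p up to 0.103), Kcnt2 without Smo2 replicate 2 or no Smo2 replicate 1 or 2 (up to 0.0686), Kcnh8 without any array but Smo2 replicate 3 (up to 0.129) and Kcnma1 without any array but Smo2 replicate 2 (up to 0.116). Of the 12 called genes with further probe sets above the filter, Kcnma1 had one of the other sign, and besides it Kcnab1 (-0.76 to -0.32) and Kcnh1 (-1.08 to -0.24) had one that did not pass. With the mean of probe sets Kcnj3 changed by -0.16 and did not pass (adjusted p = 0.120), as a further probe set below the filter gave 1.57 against -0.96 on the brightest. Kcnh8 did not pass in that fit either (adjusted p = 0.0506), but it has 1 probe set, so only the genes fitted beside it changed.

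Across the comparisons, 27 of the 32 tested genes were called at least once, and Kcna6, Kcnj11, Kcnmb2, Kcnq1ot1 and Kcnq3 in none. Kcnab1, Kcnd2, Kcnj3, Kcnk10 and Kcnq5 made up 62.5% of the 8 genes lower in the mutant and 83.3% of the 6 lower with ICRF-193. All 8 and all 6 were also lower with Smo2, where they made up 36.4% and 27.3% of the 22 lower genes. Over all genes tested, 84 were lower both in the mutant and with ICRF-193, which is 20.4% of the 412 lower in the mutant and 22.5% of the 373 lower with ICRF-193. Of these 412 and 373 genes 78.6% and 76.4% were also lower with Smo2, and 79 genes (0.733%) were lower in all 3 comparisons. No test of the overlap was made. The 3 comparisons share no arrays. Other genes had opposite calls. Kcna2 and Kcnj10 were higher in the mutant and lower with Smo2, and Kcnj12 was higher with ICRF-193 and lower with Smo2. Kcnip3 was higher in the mutant and with Smo2, and Kcne1l and Kcnh2 were higher with ICRF-193 and with Smo2.

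**Figure D3:**
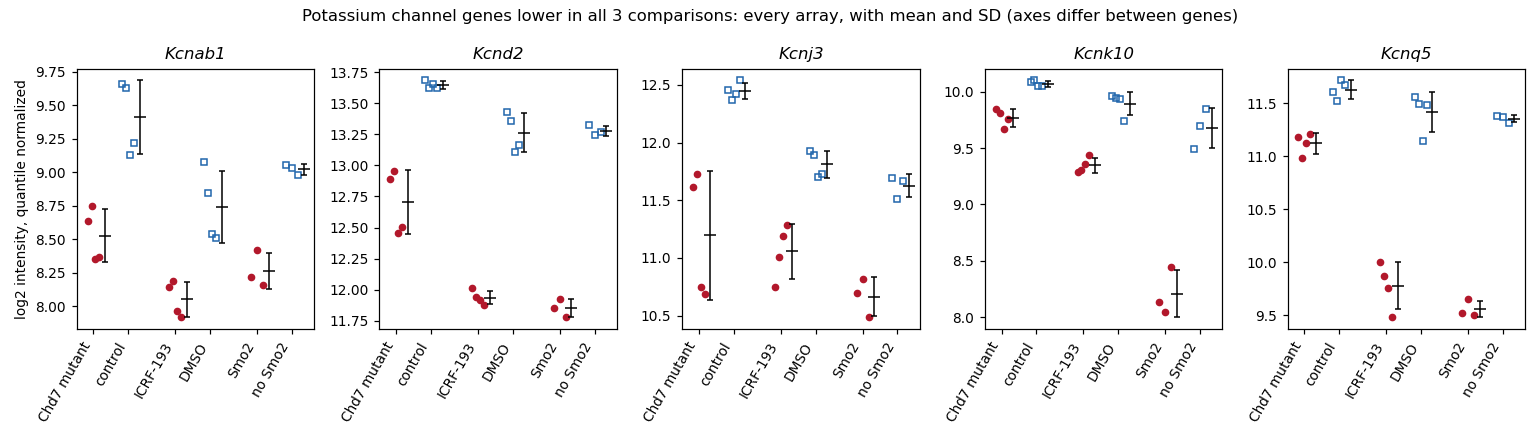
Log2 intensity (y axis, quantile normalized, a separate axis for each gene) of the 5 genes lower in all comparisons, with Chd7 mutant, ICRF-193 and Smo2 arrays as filled points, each left of its control, DMSO or no Smo2 arrays as open squares, and bars for mean and SD. In every gene and comparison all filled points lie below the open squares beside them.

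The change in the mutant was tested against the change with ICRF-193 in a single limma contrast. It was lower in the mutant for 4 of the 32 genes (12.5%) and higher for 1 (3.12%), against 2.62% and 3.87% of all genes tested. Kcnq5 fell less in the mutant than with ICRF-193, by a difference of 1.13 (95% interval 0.80 to 1.47, adjusted p = 0.000569). The 3 channels Kcnk3, Kcnj12 and Kcnh2, higher with ICRF-193, were not called in the mutant, and their changes differed, with differences of -2.47 (-3.66 to -1.29, adjusted p = 0.0145), -0.98 (-1.52 to -0.44, adjusted p = 0.0311) and -0.92 (-1.39 to -0.46, adjusted p = 0.0181). Kcns2 differed by -0.66 (-0.95 to -0.38, adjusted p = 0.0066), with 8.70 ± 0.06 in mutant and 9.08 ± 0.12 in control neurons. Part of this difference came from a rise of 0.29 with ICRF-193, which was not called. For the other genes lower in both comparisons the difference did not pass after adjustment. The unadjusted 95% intervals of Kcnd2 (0.06 to 0.71) and Kcnk10 (0.06 to 0.44) lay on the positive side. They take no account of how many genes were tested, so an equal change is not excluded. The unadjusted intervals of Kcnj3 (-1.11 to 0.12) and Kcnab1 (-0.65 to 0.26) leave room for equal and for unequal changes. With the replicate number as a block 5 more differences passed, those of Kcnq3 (1.05), Kcnab2 (-0.74), Kcnj6 (-0.51), Kcnh1 (0.42) and Kcnd3 (0.40), with adjusted p-values of 0.0190 to 0.0462.

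**Figure D4:**
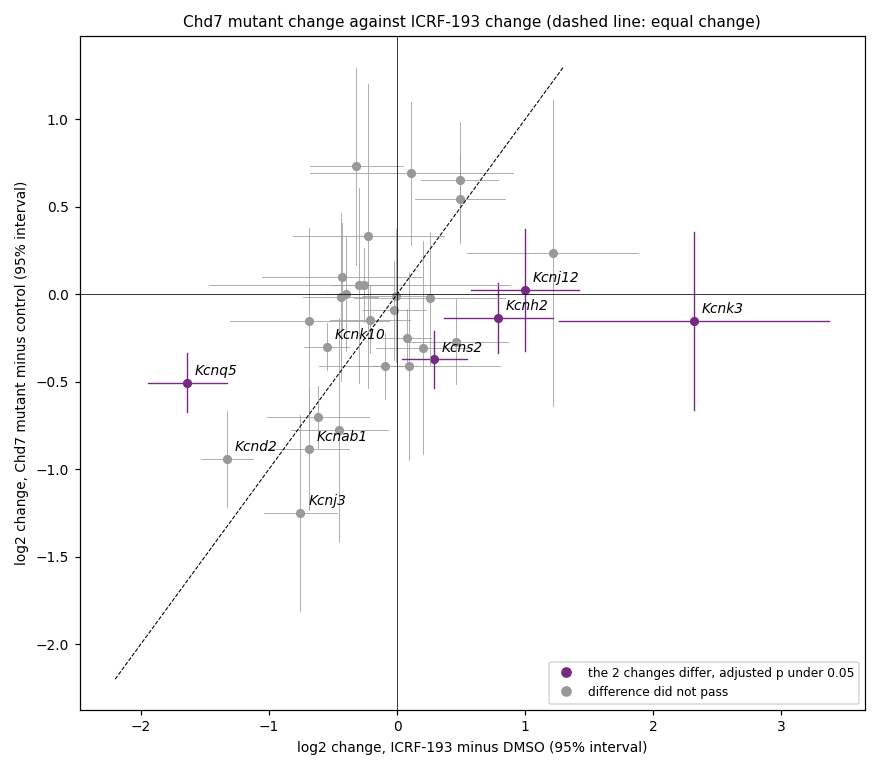
Log2 change in the Chd7 mutant (y axis) against log2 change with ICRF-193 (x axis) for the 32 tested genes, with 95% intervals; the dashed line marks equal changes and purple the 5 genes whose changes differ. Kcnk3, Kcnj12 and Kcnh2 lie far to the right near a mutant change of 0, and Kcnq5 lies left of the line.

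The study concerns the length of the genes that Chd7 and topoisomerases act on, so the tested genes were also split at 100 kb, a limit taken from the study. Their annotated lengths in GRCm38.p6 ran from 1.446 kb (Kcne1l) to 712.823 kb (Kcnma1), with a median of 74.5 kb against 25.0 kb over all genes tested. Of the 14 genes over 100 kb, 5 were lower in the mutant (35.7%), 6 with ICRF-193 (42.9%) and 12 with Smo2 (85.7%), and none was higher. Among all genes tested of that length 9.61%, 15.6% and 55.1% were lower and 6.81%, 3.18% and 20.5% higher in the same order (limma). Of the 18 shorter genes, 3 were lower and 3 higher in the mutant, 0 lower and 4 higher with ICRF-193, and 10 lower and 4 higher with Smo2. Among all genes tested up to 100 kb 2.82% were lower and 4.79% higher in the mutant, 1.38% and 3.13% with ICRF-193, and 36.2% and 31.3% with Smo2.

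The 5 genes lower in all comparisons were Kcnq5 with 564.3 kb, Kcnd2 with 514.5 kb, Kcnab1 with 429.0 kb, Kcnj3 with 186.3 kb and Kcnk10 with 148.8 kb. The 4 genes higher with ICRF-193 had 1.446 kb (Kcne1l), 32.1 kb (Kcnh2), 37.1 kb (Kcnk3) and 50.7 kb (Kcnj12). Median changes of the longer and the shorter genes were -0.30 and -0.06 in the mutant, -0.45 and 0.18 with ICRF-193, and -1.02 and -0.83 with Smo2. Over all genes tested above 100 kb they were -0.04, -0.08 and -0.37. As a description across genes, which are not independent, Spearman's rho of length and change over the 32 genes was -0.325 in the mutant, -0.589 with ICRF-193 and -0.031 with Smo2, and over 10730 genes with a length -0.034, -0.069 and -0.116. Length did not go with the calls in every case. The short Kcns2 and Kcnmb4os2 were lower in the mutant. Kcnma1, the longest of the tested genes, did not pass in the mutant (-0.16) or with ICRF-193 (-0.68), though both changes were downward. Kcnip4, longer still with 1135.62 kb, lay below the filter and was not tested. It averaged 6.84 in mutant and 6.81 in control neurons, and 4.85 with ICRF-193 and 6.69 with DMSO.

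**Figure D5:**
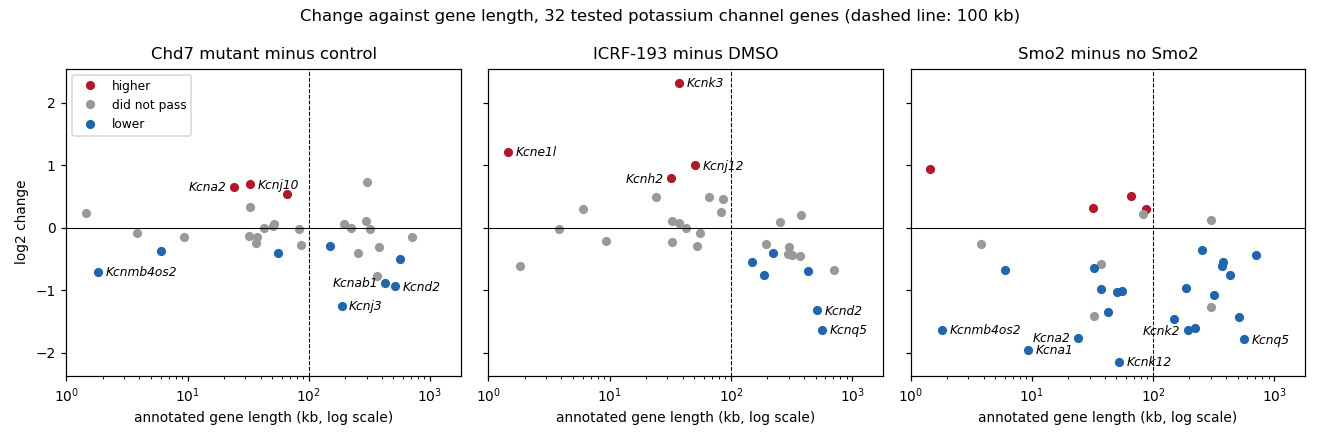
Log2 change (y axis) against annotated gene length (x axis, kb, log scale) for the 32 tested genes in each comparison, red for higher, blue for lower, grey for not passed; the dashed line marks 100 kb and the 6 called genes with the largest changes are named. With ICRF-193 every blue point lies right of the line and every red point left of it, and with Smo2 blue points lie on both sides.

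Genes of proteins that work with these channels but carry other symbols were counted in the same way. Of 12 tested partner genes, 4 were lower and 1 higher in the mutant (median change -0.11), 4 lower and 1 higher with ICRF-193 (-0.28) and 10 lower and 1 higher with Smo2 (-1.08). Over all genes tested 3.82%, 3.46% and 39.0% were lower in these comparisons, with median changes of 0.00, 0.01 and -0.09. Dpp6, the accessory protein that speeds Kcnd channels, averaged 11.15 in mutant and 11.44 in control neurons (-0.29, limma adjusted p = 0.0248), 9.65 with ICRF-193 and 11.14 with DMSO (-1.49, adjusted p = 3.91e-05), and 9.75 with Smo2 and 11.34 without (-1.59, adjusted p = 6.22e-06). Cntnap2, which gathers Kcna channels beside the node of Ranvier, averaged 6.43 with ICRF-193 and 8.51 with DMSO (-2.07, adjusted p = 0.000748), and 8.62 in mutant and 8.70 in control neurons, where it did not pass. Of the scaffolds, Dlg2 was lower in all comparisons (-0.44, -1.15 and -1.32) and Dlg1 was higher in the mutant (0.41) and with Smo2 (0.30). Adam23 was lower in the mutant (-0.79) and with Smo2 (-1.04), and Abcc8, the sulfonylurea receptor that joins Kcnj11, was higher with ICRF-193 (0.60) and lower with Smo2 (-1.28).

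The HCN channels, which pass potassium and sodium on hyperpolarisation, had 2 tested genes, of which Hcn2 was lower with Smo2 (-0.87, limma adjusted p = 0.0243) and neither passed in the mutant or with ICRF-193. Of 5 tested genes of potassium pumps and cotransporters, Slc12a2 alone was called in the mutant (0.27 higher, limma adjusted p = 0.0379) and none with ICRF-193. All 5 were lower with Smo2, where 39.0% of all genes tested were lower. They included the pump subunits Atp1b2 (-1.62) and Atp1b1 (-1.20) and the chloride extruder Slc12a5 (-1.48). Slc12a4 and Slc12a7 lay below the filter, were not tested and went the other way. Slc12a4 averaged 7.96 with Smo2 and 6.47 without, and Slc12a7 averaged 7.88 and 5.87.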

How the data were processed

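RNA of 22 samples was hybridised to Affymetrix mouse arrays as biotin-labelled cRNA. The table deposited by the authors gives a linear intensity for each of 45101 probe sets. Software and method behind their summarisation and normalization were not given in the sources used here. All 22 arrays had the same mean of 500 once 2% of the values was trimmed from both ends, the mark of a global scaling. Of the probe sets 34958 carry 1 gene symbol, 932 several and 9211 none, and only the first kind was used. All 84 genes matched RefSeq by Entrez ID. Promoter windows were at hand for 64 of them.

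Intensities were floored at 16 and taken to log2, and 18.99% of values were at the floor. Array medians ranged from 6.33 to 6.81, more than a limit of 0.2, so the arrays were quantile normalized. Each gene was represented by the probe set with the highest mean, and a gene was tested where that mean reached 6.44, the median of all probe sets. Each comparison was fitted on its own arrays by limma (version 3.58.1, R version 4.3.3). Tests were two-sided, p-values were adjusted over 10772 genes by the Benjamini-Hochberg method, and a gene was called at an adjusted p under 0.05. Of 231 pairs of arrays 0 held identical values. The fit was tested on simulated data with known changes, larger than many of those called here. Simulated arrays varied independently, so that test does not cover arrays that deviate together in sets. Arrays have no read depth, and precision is limited by how many there are. Plots were made in Python 3.11.15 (matplotlib 3.10.9).

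Mutant and control arrays that carry the same replicate number deviated from their group means together (correlations of 0.39 to 0.42), as did ICRF-193 and DMSO arrays (0.28 to 0.41) but not Smo2 and no Smo2 arrays (-0.01 to 0.04). The main fits nevertheless took no pairs. The replicate number entered only as a block in alternative fits, and no label gives such pairs. Within replicates 1 and 2 and within replicates 3 and 4, arrays of different number were as close (0.38 to 0.44 for Chd7, 0.30 to 0.35 for ICRF-193). The rule named every called gene, the brightest of each subfamily, the genes that the study lists and called genes whose probe sets disagree, with values of every array for called changes of at least 0.8. The genes, the lists and the length limit were chosen with earlier results of these data known. Alternatives changed the normalization, filter, floor, pairing, variance model, test, probe set and threshold. Further fits omitted 1 array at a time. Other data of the study were not analysed here.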

Additional observations from a re-analysis of the deposited data

Results flagged for a closer look

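In the groups of 4 arrays of the 27 called genes, 3 of 108 groups held an array so far from the other 3 that the gap filled most of the range of the group (a share of 0.85, 0.879 and 0.904 in the order below), and chance alone gives about 5 percent of groups. Kcnh8 was 6.07 on Chd7 mutant replicate 3, against 6.91 to 7.06 on the other mutant arrays. Kcnk10 was 9.74 on DMSO replicate 4, against 9.93 to 9.96 on the other DMSO arrays. Kcnmb4os2 was 9.11 on the same DMSO array, against 9.76 to 9.83 on the others, and it did not pass in the ICRF-193 comparison (-0.62, limma adjusted p = 0.0812).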

How the results depend on the processing

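No call of a single gene changed direction under any alternative run: of 1046 fits of 52 calls 864 kept the call and 182 lost it. In the mutant comparison 8 genes were lower and 3 higher. The higher count was 1 with no filter, 1 by the methods' t-test with adjusted p-values, 0 with the mean of probe sets, 0 at an adjusted p under 0.01 and 0 to 2 when an array was left out. The lower count was 3 at an adjusted p under 0.01 and 4 to 8 when an array was left out, the lowest without control replicate 1. With the mean of each set of replicates as 1 sample and the set as a block, chosen after the data were seen as were the fits within sets, both counts were 0. With ICRF-193 6 genes were lower and 4 higher. The higher count was 1 with no filter, 1 with a filter of 8, 8 with the set of replicates as a block, 8 in 1 fit of the 22 arrays, 0 by the methods' t-test, 2 with the mean of probe sets, 2 within replicates 1 and 2, 0 within replicates 3 and 4, 1 with set means, 0 at an adjusted p under 0.01 and 1 to 4 when an array was left out. The lower count was 2 within replicates 3 and 4, 2 with set means and 5 to 7 when an array was left out. With Smo2 22 genes were lower and 4 higher. The higher count was 7 with no filter, 1 with a filter of 8, 2 with trend and robust variance, 2 in 1 fit of the 22 arrays, 2 by the methods' t-test and 2 at an adjusted p under 0.01. The difference of the Chd7 and ICRF-193 changes was lower for 4 genes and higher for 1, against 2 lower with median centring, 2 higher with the deposited scaling only, and 7 lower and 5 higher with the set of replicates as a block. Fewer arrays or genes enter the fits that leave out arrays or filter, and for the other settings the cause was not tested.

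Under the replicate block 10 genes were lower and 3 higher in the mutant, 8 lower and 6 higher with ICRF-193, and 22 lower and 5 higher with Smo2, where the pairing has no support in the data and Kcnj11 and Kcnq1ot1 were gained and Kcnma1 lost. The difference was lower for 6 and higher for 4 under this block. The block ended no calls but those of Kcnj10 in the mutant and Kcnma1 with Smo2. Signals near the floor limit what can be said of 20 genes, and 52 were not tested.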
